A study of Rattus norvegicus with 9 samples.

Results

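Expression of 5 genes of the acid-base machinery of kidney intercalated cells was examined in kidney RNA from 9 libraries, 3 each of hypertensive animals given Qingda granule (QDG), hypertensive animals (Model) and normal animals (WT), all at 6 weeks of age. Qingda granule is a Chinese herbal preparation. The 5 genes, Atp6v1b1, Atp6v1g3, Slc26a4, Slc4a1 and Foxi1, were taken from a fixed list of Ensembl mouse identifiers, and all 5 were found among the 17862 features listed for every library. The list was chosen with earlier results of these data known, and the p values below take no account of that choice. The files carry identifiers only, so the gene names are those given with that list. The labels name the brown rat as the organism although the identifiers are those of mouse genes, and the identifiers alone do not settle which species the sequenced RNA came from. Strain, sex, granule dose, the way hypertension was produced and any tie between libraries and single animals are not stated in the labels. Each p below therefore speaks of the spread between libraries alone, and that spread may be technical.

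Intercalated cells are the acid- and base-secreting cells of the collecting duct and connecting tubule, where they lie among the principal cells that reabsorb sodium and water. Type A cells secrete acid through an apical proton pump, the V-ATPase, and return bicarbonate to the blood through the basolateral chloride/bicarbonate exchanger encoded by Slc4a1. Type B cells carry the pump on the other face and secrete bicarbonate through the apical exchanger pendrin, encoded by Slc26a4, which also takes up chloride and is linked with blood pressure. Foxi1 is a forkhead transcription factor that mouse kidneys need to form intercalated cells. Atp6v1b1 and Atp6v1g3 encode subunits of the peripheral, ATP-hydrolysing sector of the V-ATPase that are enriched in these cells.

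Since Foxi1 is a DNA-binding regulator of such cells, the windows around the annotated start of the pump subunits and of Slc26a4 are shown with the letters of a forkhead core in capitals. The sequences are RefSeq's for the rat genes of the same symbol in GRCr8, each 300 bases long and running 5′ to 3′ on the gene's strand from 250 bases before the start to 50 after it. A window was held for 4 of the 5 genes, Slc4a1 being the gene without one. The capitals mark the forkhead core TGTTTA wherever it stands on either strand. They also mark its variant with a final G, which is written TGTTTG. A longer form of the core that ends in C was counted as well, and it overlaps the core wherever it occurs. The windows are chr4:117781194-117781493 on the + strand for Atp6v1b1, chr13:52362082-52362381 on the + strand for Atp6v1g3 and chr6:53873167-53873466 on the − strand for Slc26a4.
Atp6v1b1: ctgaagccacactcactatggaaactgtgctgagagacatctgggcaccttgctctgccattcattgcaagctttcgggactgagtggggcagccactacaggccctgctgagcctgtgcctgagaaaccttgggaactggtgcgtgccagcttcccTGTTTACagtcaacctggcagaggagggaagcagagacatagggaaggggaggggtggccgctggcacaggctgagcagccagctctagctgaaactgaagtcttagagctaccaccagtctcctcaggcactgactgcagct
Atp6v1g3: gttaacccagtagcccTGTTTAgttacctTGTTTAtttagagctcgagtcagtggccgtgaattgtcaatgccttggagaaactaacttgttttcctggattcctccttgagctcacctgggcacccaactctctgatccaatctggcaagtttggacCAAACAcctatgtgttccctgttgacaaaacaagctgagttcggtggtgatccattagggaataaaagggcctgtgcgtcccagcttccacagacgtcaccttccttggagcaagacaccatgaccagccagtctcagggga
Slc26a4: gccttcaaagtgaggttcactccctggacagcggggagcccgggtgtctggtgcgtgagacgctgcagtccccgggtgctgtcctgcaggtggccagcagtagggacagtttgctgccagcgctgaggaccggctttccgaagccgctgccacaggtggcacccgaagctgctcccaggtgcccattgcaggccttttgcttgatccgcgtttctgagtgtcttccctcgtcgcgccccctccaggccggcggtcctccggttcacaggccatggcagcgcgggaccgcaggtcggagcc
The Atp6v1b1 window holds this longer form, TGTTTAC, from 93 to 87 bases before the start, a 7-letter run found in 3.78% of the 33469 rat windows. The Atp6v1g3 window holds TGTTTA 234 to 229 and 221 to 216 bases before the start, and TGTTTG on the opposite strand, written CAAACA, 92 to 87 bases before it. TGTTTA occurs in 13.7% of all windows and in 2 of the 4 held here, and TGTTTA or TGTTTG in 28.4% and in 2 of 4. The windows of Slc26a4 and of Foxi1 itself hold none of these letters. The letters were chosen with the sequences in view, so these shares do not measure how unusual a match is. A match is a description of the letters and not a measured binding site.

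Library divisors implied by the values lay between 26.2 M and 31.4 M reads, with 26.8 M to 29.4 M reads recovered in the listed features. Values are in FPKM, reads scaled to feature length and to a divisor of the library. Over the 9 libraries the 5 genes held 550 (Foxi1, Model 2) to 4524 (Slc26a4, QDG 3) recovered reads, so that counting error was 4.26% of the value at most. The SD within a group was 8.10% to 41.6% of its mean, except for Foxi1 in WT at 3.67%, which was near counting error. This covers counting error only. Differences are given as log2 of FPKM + 1 from 1 limma model over all 9 libraries. It covered the 12187 features that averaged 1 FPKM or more, all 5 genes among them. A difference was called when its p, adjusted by the Benjamini-Hochberg method over all 12187 features, was under 0.05.

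All 5 genes had values above 0 in every library, as did all 17862 listed features. By the mean of the 9 libraries, Slc26a4 (ENSMUSG00000020651, 33.1 FPKM) and Atp6v1g3 (ENSMUSG00000026394, 33.1 FPKM) stood highest. Atp6v1b1 (ENSMUSG00000006269, 24.0 FPKM), Foxi1 (ENSMUSG00000047861, 12.6 FPKM) and Slc4a1 (ENSMUSG00000006574, 9.54 FPKM) followed. In rank these are numbers 1526 to 4404 of the 17862 features. The lengths recovered from the steps of the values were 3109 bases for Slc26a4, 1887 for Atp6v1g3, 4381 for Atp6v1b1, 2357 for Foxi1 and 4891 for Slc4a1. Atp6v1g3, Atp6v1b1 and Slc26a4 each exceeded both Foxi1 and Slc4a1 in 9 of 9 libraries. Atp6v1g3 also exceeded Atp6v1b1 in 9 of 9 libraries. Atp6v1g3 and Slc26a4 did not keep an order, with Atp6v1g3 higher in 0 of 3 QDG, 2 of 3 Model and 2 of 3 WT libraries. Foxi1 and Slc4a1 lay close, with Slc4a1 higher in Model 2 and WT 3 and lower in the other 7. If the RNA was that of the rat, levels of different genes would also vary with how well each sequence matches between the species.

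**Figure D1:**
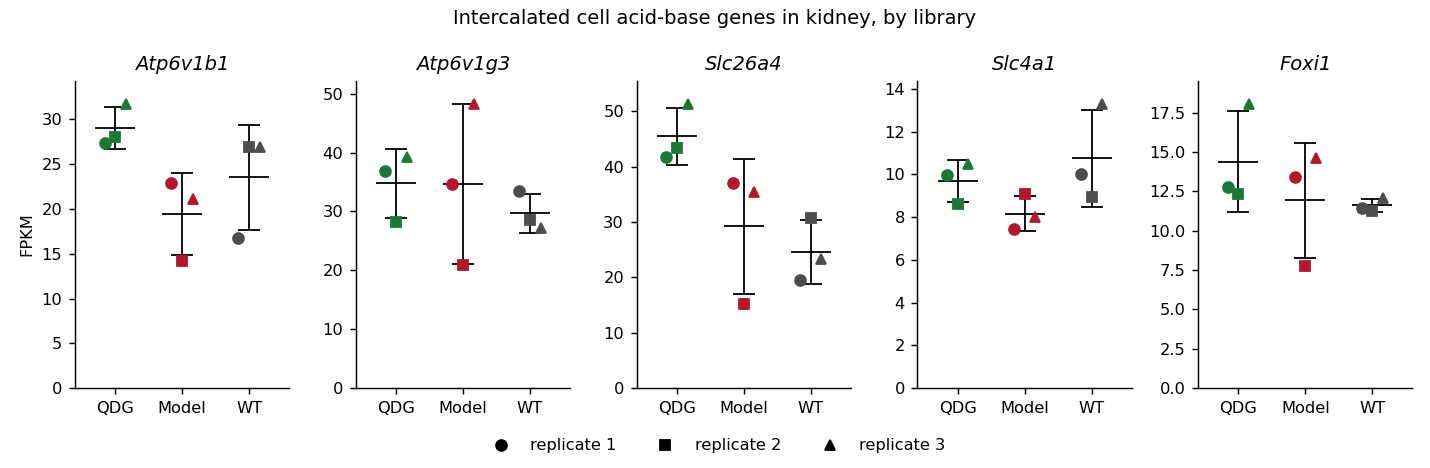
FPKM of the 5 genes in each library, with a panel per gene and QDG, Model and WT from left to right. Points are libraries, with the symbol giving the replicate number, and bars are the mean ± SD of 3 libraries; the lowest point of 4 panels (Atp6v1b1, Atp6v1g3, Slc26a4 and Foxi1) is Model 2, and all 3 QDG points of Atp6v1b1 and Slc26a4 lie above the points of the other groups.

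The comparison of QDG with Model asks how treated hypertensive kidney differed from untreated. None of the 5 genes was called (0 of 5; limma), against 0% of all 12187 features. At an unadjusted p under 0.05 there were 2 of 5, Atp6v1b1 and Slc26a4, both higher in QDG. Of all features, 13.9% passed that limit in either direction and 4.27% as higher. Voom on recovered reads also called 0 of 5 under both scalings, with the same number, 2, at an unadjusted p under 0.05. In tissue RNA, fewer cells of a type and less RNA per cell cannot be told apart.

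The exchanger gene Slc26a4 had the larger of these differences. It stood at 41.7, 43.4 and 51.4 FPKM in QDG, against 37.0, 15.2 and 35.4 FPKM in Model. All QDG libraries lay above all Model libraries, but Model 1 and Model 3 came closest to the QDG libraries while Model 2 lay far below. The means were 45.5 ± 5.16 FPKM in QDG and 29.2 ± 12.1 FPKM in Model (SD, n = 3 each), a 1.56-fold ratio. On the log2 scale QDG exceeded Model by 0.72 (SE 0.29), with a 95% interval of 0.06 to 1.37 (limma adjusted p = 0.328). Without Model 2 it was 0.32 (limma adjusted p = 0.467), and without QDG 3 it was 0.63 (limma adjusted p = 0.734). The unadjusted p of limma was over 0.05 without Model 2 (0.112), QDG 3 (0.0984), QDG 2 (0.0564) or WT 3 (0.0501). With only QDG and Model fitted it was 0.0524.

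The pump subunit gene Atp6v1b1 encodes the kidney and inner ear form of the B subunit, whose loss causes distal renal tubular acidosis with deafness in humans. It stood at 27.4, 28.0 and 31.7 FPKM in QDG, against 22.9, 14.2 and 21.1 FPKM in Model, with no overlap. The mean was 29.0 ± 2.35 FPKM in QDG and 19.4 ± 4.58 FPKM in Model (SD, n = 3 each), a ratio of 1.50. This was 0.58 on the log2 scale (SE 0.21), with a 95% interval of 0.12 to 1.04 (limma adjusted p = 0.311). It was 0.38 without Model 2 (limma adjusted p = 0.425) and 0.52 without QDG 3 (limma adjusted p = 0.734). The unadjusted p of limma was 0.0185 with all libraries, 0.0787 without Model 2 and 0.0603 without QDG 3. Without any other single library it lay between 0.00625 (WT 1) and 0.0342 (QDG 2). Of the 5 genes, only Slc26a4 and Atp6v1b1 had QDG and Model libraries that did not overlap. Of all features, 10.4% had every QDG value above every Model value.

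The other 3 genes overlapped between QDG and Model. Atp6v1g3, the kidney-enriched form of the G subunit in the stalk of the pump, stood at 36.9, 28.2 and 39.3 FPKM in QDG and at 34.7, 21.0 and 48.3 FPKM in Model. Its Model libraries enclosed all QDG libraries, and the log2 difference was 0.07 with a 95% interval of −0.49 to 0.63 (limma adjusted p = 0.922). It turned to −0.24 without Model 2 (limma adjusted p = 0.579) and to −0.024 without QDG 3 (limma adjusted p = 0.986). Foxi1 stood at 12.8, 12.3 and 18.1 FPKM in QDG and at 13.4, 7.78 and 14.6 FPKM in Model. QDG 3 was the highest and Model 2 the lowest of these 6 libraries, and the others lay between 12.3 and 14.6 FPKM. The log2 difference of Foxi1 was 0.27 with an interval of −0.19 to 0.74 (limma adjusted p = 0.572), 0.02 without Model 2 (limma adjusted p = 0.973) and 0.11 without QDG 3 (limma adjusted p = 0.907). Slc4a1 stood at 9.99, 8.61 and 10.5 FPKM in QDG and at 7.44, 9.07 and 7.99 FPKM in Model. Its highest Model library lay above its lowest QDG library, and the log2 difference was 0.22 with an interval of −0.10 to 0.54 (limma adjusted p = 0.502). The median log2 difference of the 5 genes was 0.27, beside −0.02 over all tested features.

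The comparison of QDG with WT asks what differed from normal kidney under treatment. None of the 5 genes was called (0 of 5; limma), against 2.47% of all features, and voom on recovered reads called 0 of 5 under both scalings. At an unadjusted p under 0.05 there was 1 of 5, Slc26a4, where 21.3% of all features passed in either direction and 11.8% as higher. Every QDG value lay above every WT value for 3 of 5 genes (Slc26a4, Atp6v1b1 and Foxi1), against 15.2% of all features. For Atp6v1b1 the closest values were 27.4 (QDG 1) and 26.9 FPKM (WT 3), with counting errors of 1.70% and 1.64%. For Foxi1 they were 12.3 (QDG 2) and 12.1 FPKM (WT 3), with counting errors of 3.43% and 3.34%. The gap between the groups was thus within counting error for Atp6v1b1 and Foxi1.

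Slc26a4 had 41.7, 43.4 and 51.4 FPKM in QDG, against 19.6, 30.8 and 23.4 FPKM in WT. The groups did not overlap, and WT 2 was the WT library closest to QDG. Mean levels were 45.5 ± 5.16 FPKM in QDG and 24.6 ± 5.73 FPKM in WT (SD, n = 3 each), a 1.85-fold ratio. The log2 difference of 0.88 had an SE of 0.29 and a 95% interval of 0.23 to 1.53 (limma adjusted p = 0.129). With the same difference of 0.88, the SE was 0.16 without Model 2 (limma adjusted p = 0.0202) and 0.17 with only QDG and WT fitted (limma adjusted p = 0.0321), and both of these passed. Model 2 is in neither group compared, and it enters this SE only through the spread pooled over all groups. The SD of log2 levels of Slc26a4 was 0.69 in Model, 0.32 in WT and 0.16 in QDG. Under the other 17 of the 19 alternatives Slc26a4 did not pass, with adjusted p up to 0.343. That highest value came without WT 1, where the difference was 0.73 and the unadjusted p of limma was 0.0531.

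**Figure D2:**
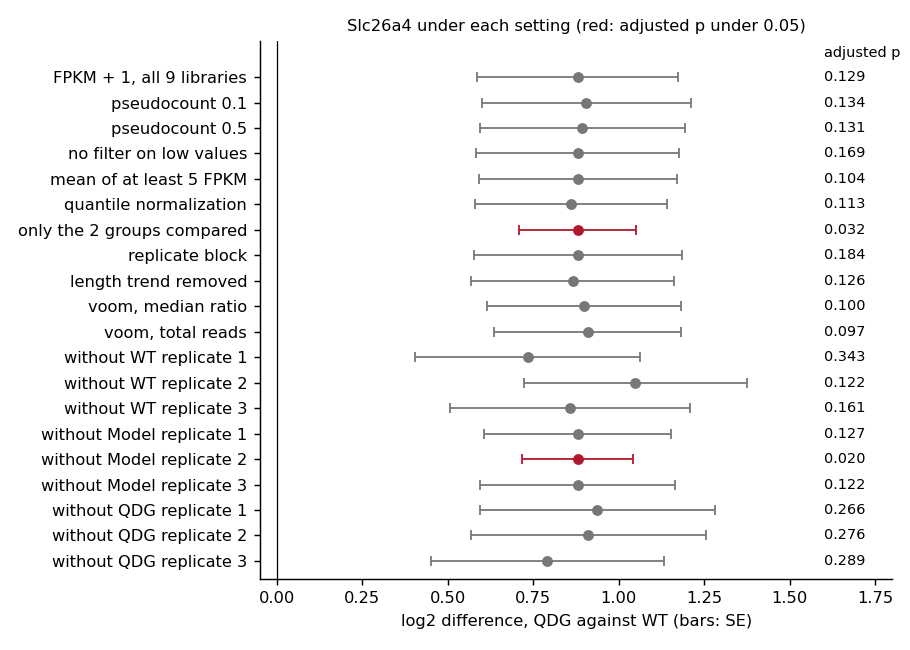
Log2 difference of Slc26a4 for QDG against WT (horizontal axis, bars are the SE) under each setting, from the model over all 9 libraries at the top to the models without 1 library at the bottom, with the limma adjusted p at the right. The difference lay between 0.73 and 1.05 throughout, and the adjusted p was under 0.05 (red) only with the 2 groups fitted alone and without Model replicate 2.

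Atp6v1b1 in QDG lay just above the upper WT libraries. Its values were 27.4, 28.0 and 31.7 FPKM in QDG and 16.7, 26.9 and 26.9 FPKM in WT, where WT 1 was low. The means of 29.0 ± 2.35 FPKM in QDG and 23.5 ± 5.87 FPKM in WT (SD, n = 3 each) gave a log2 difference of 0.32 with an interval of −0.14 to 0.78 (limma adjusted p = 0.397), and of 0.10 without WT 1 (limma adjusted p = 0.825). Foxi1 in WT was tight, at 11.5, 11.3 and 12.1 FPKM, against 12.8, 12.3 and 18.1 FPKM in QDG. The groups did not overlap, yet QDG 1 and QDG 2 lay just above WT and only QDG 3 stood clear, and the log2 difference was 0.27 with an interval of −0.20 to 0.73 (limma adjusted p = 0.490). Without QDG 3 it was 0.10 (limma adjusted p = 0.843). Atp6v1g3 (36.9, 28.2 and 39.3 FPKM in QDG, against 33.4, 28.6 and 27.2 FPKM in WT) and Slc4a1 (9.99, 8.61 and 10.5 FPKM in QDG, against 10.0, 8.93 and 13.3 FPKM in WT) overlapped between the groups. Their log2 differences were 0.21 and −0.12, with intervals of −0.35 to 0.77 and −0.44 to 0.20 (limma adjusted p = 0.659 and 0.660), and that of Slc4a1 was 0.030 without WT 3. The median over the 5 genes was 0.27, beside 0.00 over all features.

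The comparison of Model with WT asks what differed in the hypertensive kidney. None of the 5 genes was called (0 of 5; limma), while 7.90% of all features were, and voom on recovered reads called 0 of 5 under both scalings. Slc4a1 alone had an unadjusted p under 0.05 (1 of 5, against 28.0% of all features in either direction and 10.2% as lower), and no gene had groups without overlap. The share of all features whose groups did not overlap was 17.3% with Model higher and 10.9% with Model lower. The median log2 difference was −0.01 over the 5 genes and 0.02 over all features.

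Slc4a1 encodes the anion exchanger AE1, which red cells hold as band 3 and type A intercalated cells as a shorter kidney form, and 1 value per gene does not separate the forms. It stood at 7.44, 9.07 and 7.99 FPKM in Model, against 10.0, 8.93 and 13.3 FPKM in WT. Model 2 lay just above WT 2, and WT 3 stood apart from the other WT libraries. The mean was 8.17 ± 0.830 FPKM in Model and 10.7 ± 2.28 FPKM in WT (SD, n = 3 each), with a log2 difference of −0.34, an SE of 0.14 and a 95% interval of −0.66 to −0.03 (limma adjusted p = 0.150). Without WT 3 it was −0.19, and the unadjusted p of limma was then 0.140. That p was also over 0.05 without Model 1 (0.114) or Model 3 (0.0783). With only the 2 groups fitted the unadjusted p of limma was 0.0600, and after removal of a trend with feature length it was 0.0691. Voom scaled to total reads gave an unadjusted p of 0.0501. Slc4a1 had the lowest of the 5 differences, which lay at the 8.04th percentile of all features. Levels of other red cell genes could not be looked up, so the part of red cell RNA in these values was not tested.

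The remaining 4 genes spread more widely in Model than they differed from WT. Slc26a4 had 37.0, 15.2 and 35.4 FPKM in Model, against 19.6, 30.8 and 23.4 FPKM in WT, with a log2 difference of 0.16 and an interval of −0.49 to 0.82 (limma adjusted p = 0.745). Here Model 1 and Model 3 lay above all WT libraries and Model 2 below all of them. Without Model 2 the log2 difference of Slc26a4 was 0.56 (limma adjusted p = 0.0808), while it was −0.050 without Model 1 (limma adjusted p = 0.937) and −0.020 without Model 3 (limma adjusted p = 0.981). Atp6v1g3 showed the same arrangement, with 34.7, 21.0 and 48.3 FPKM in Model against 33.4, 28.6 and 27.2 FPKM in WT. On the log2 scale it differed by 0.14 with an interval of −0.41 to 0.70 (limma adjusted p = 0.738), 0.46 without Model 2 (limma adjusted p = 0.145) and −0.13 without Model 3 (limma adjusted p = 0.778). Foxi1 differed by −0.01 with an interval of −0.47 to 0.46 (limma adjusted p = 0.989), by 0.25 without Model 2 (limma adjusted p = 0.321) and by −0.16 without Model 3 (limma adjusted p = 0.708). Its Model libraries stood at 13.4, 7.78 and 14.6 FPKM and its WT libraries at 11.5, 11.3 and 12.1 FPKM, so that Model 2 was again the only Model library under WT. For Atp6v1b1 the difference was −0.26 with an interval of −0.72 to 0.20 (limma adjusted p = 0.436), and both Model 2 and WT 1 were low within their groups. It was −0.062 without Model 2 (limma adjusted p = 0.857) and −0.48 without WT 1 (limma adjusted p = 0.148).

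**Figure D3:**
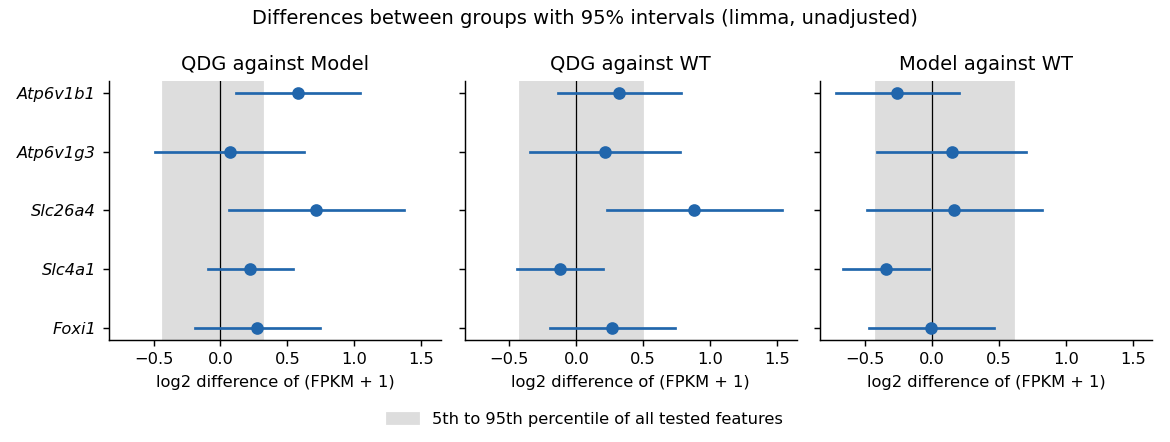
Log2 differences of the 5 genes (points) with unadjusted 95% intervals (lines) for QDG against Model, QDG against WT and Model against WT. The grey band spans the 5th to 95th percentile of all 12187 tested features; Slc26a4 lies right of the band in both QDG comparisons and Atp6v1b1 in QDG against Model, with wide intervals, and all 5 points lie within the band in Model against WT.

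Model 2 was low for the same 4 genes. Its level differed from the mean of Model 1 and Model 3 by a log2 of −1.20 for Slc26a4, −0.93 for Atp6v1g3, −0.77 for Foxi1 and −0.59 for Atp6v1b1. These lay at the 0.205th, 0.542nd, 1.05th and 2.38th percentiles of the same difference over all features, whose median was −0.05. Model 2 was picked out after its low values for these genes were seen, so the percentiles are a description only. Slc4a1 went the other way, with a difference of 0.21 at the 85.3rd percentile. With 28.3 M recovered reads and a median feature at 2.70 FPKM, Model 2 lay within the range of the other libraries in depth. The SD of log2 levels in Model stood at the 98.6th percentile of all features for Slc26a4, the 97.7th for Atp6v1g3, the 95.2nd for Foxi1 and the 90.3rd for Atp6v1b1, against the 42.9th for Slc4a1. In QDG the same percentiles were 77.9 for Slc26a4, 91.9 for Atp6v1g3, 94.1 for Foxi1, 60.0 for Atp6v1b1 and 70.7 for Slc4a1. In WT, Slc26a4 stood at the 83.5th, Slc4a1 at the 74.8th and Atp6v1g3 at the 37.7th percentile. There Foxi1 varied less than most features (4.78th percentile of SD) and Atp6v1b1 more than most (90.2nd). Each percentile is taken within its group, and the typical spread differed between groups. The median SD over all tested features ran from 0.0928 (QDG) through 0.146 (Model) to 0.186 (WT). Slc4a1 thus ranked higher in QDG than in Model at nearly the same SD (0.134 and 0.129).

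**Figure D4:**
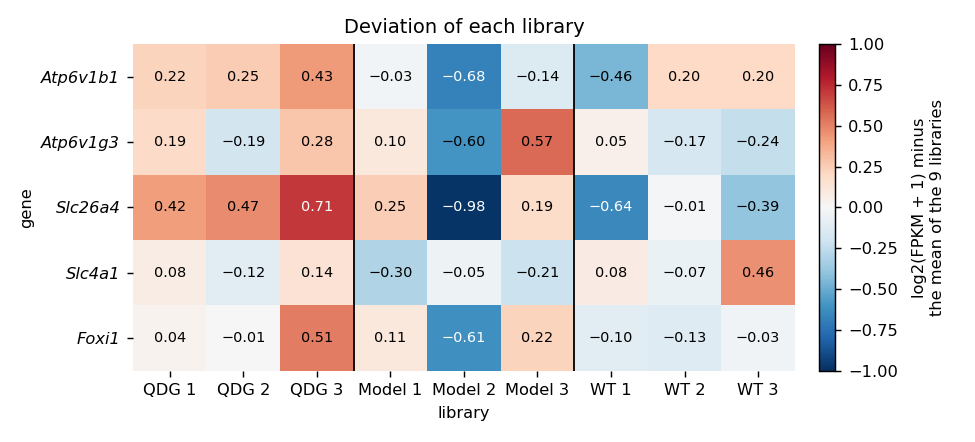
Log2(FPKM + 1) of the 5 genes (rows) in each library (columns, QDG, Model and WT from left to right) minus the mean of the 9 libraries, printed in each cell. Model 2 is at −0.98 for Slc26a4, −0.68 for Atp6v1b1, −0.61 for Foxi1 and −0.60 for Atp6v1g3 but at −0.05 for Slc4a1, and QDG 3 is above the mean for all 5 genes.

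The 2 exchangers, pendrin of type B and AE1 of type A cells, were also set against each other within each library, as a description. The ratio of Slc26a4 to Slc4a1 in FPKM was 4.18, 5.04 and 4.89 in QDG, 4.97, 1.68 and 4.44 in Model and 1.95, 3.45 and 1.76 in WT. All QDG libraries and 2 of the 3 Model libraries stood above every WT library, and Model 2 stood below them all. The ratio averaged 4.70 ± 0.460 in QDG, 3.70 ± 1.77 in Model and 2.39 ± 0.926 in WT (SD, n = 3 each). Slc26a4 was also high against the pump subunit gene Atp6v1b1 in the same libraries, with ratios of 1.52, 1.55 and 1.62 in QDG, 1.61, 1.07 and 1.68 in Model and 1.17, 1.15 and 0.868 in WT. Relative to Foxi1, Slc26a4 averaged 3.21 ± 0.340 in QDG, 2.38 ± 0.40 in Model and 2.12 ± 0.541 in WT (SD, n = 3 each).

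**Figure D5:**
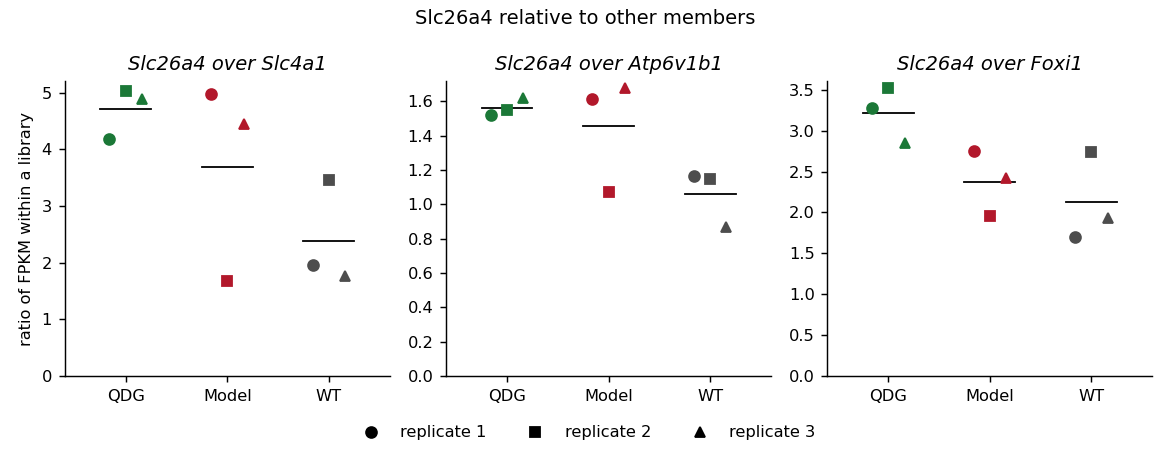
Ratio of the FPKM of Slc26a4 to that of Slc4a1, Atp6v1b1 and Foxi1 within each library (points, with the symbol giving the replicate number), with the group mean as a line and QDG, Model and WT from left to right. The ratio to Slc4a1 lies between 4.18 and 5.04 in QDG and between 1.76 and 3.45 in WT, with Model 2 at 1.68 apart from the other Model libraries.

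The 10 pairs of genes were compared over the 9 libraries. The permutation moved values over all libraries regardless of group, so its p also counts shifts between groups that both genes share. How often other pairs of features reach such an r was not computed. Slc26a4 and Foxi1 had a Pearson r of 0.83 (exact permutation test, two-sided, p = 0.00280, adjusted over 10 pairs p = 0.0280) and a Spearman rho of 0.78 (exact permutation p = 0.0172, adjusted p = 0.0574). Atp6v1g3 and Foxi1 had an r of 0.83 (exact permutation p = 0.0105, adjusted p = 0.0349) and a rho of 0.83 (exact permutation p = 0.00827, adjusted p = 0.0413). Atp6v1b1 and Slc26a4 had an r of 0.83 (exact permutation p = 0.00620, adjusted p = 0.0310) and a rho of 0.85 (exact permutation p = 0.00607, adjusted p = 0.0413). The other 7 pairs did not pass, and the 4 pairs that contain Slc4a1 lay between −0.23 and 0.25.

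The r of these pairs was lower when a few libraries were left out. Without the 2 libraries farthest from the median of the gene named first, r was 0.64 for Slc26a4 and Foxi1 (exact permutation p = 0.127, n = 7), 0.70 for Atp6v1g3 and Foxi1 (exact permutation p = 0.0349, n = 7) and 0.35 for Atp6v1b1 and Slc26a4 (exact permutation p = 0.453, n = 7). Leaving out extreme libraries narrows the range of that gene and lowers n, so a lower r cannot show that a relation is absent. Without Model 2 alone, a choice made after seeing the data, r was 0.68, 0.67 and 0.69 for these pairs in the same order. As a description, the r of the deviations from the group means was 0.83, 0.86 and 0.86 with all libraries, and 0.34, 0.54 and 0.81 without Model 2.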

How the data were processed

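Total RNA of kidney was depleted of ribosomal RNA before library construction, per the labels' protocols. The deposited values, 1 per feature and library, were taken to be FPKM made by the authors, because they moved in steps of whole reads over length and a library divisor; whole reads came out for 100% of 17862 features, within 0.0001 read or a relative 2e-09. Recovered reads exceeded the divisor in 4 libraries (divisor over reads 0.937 to 1.11), so the divisor was not the plain sum of these reads. Limma is named in the submitters' processing notes; aligner, counter, build and annotation are not stated there. Total counts per library and their precision stand in the report.

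Limma 3.58.1 in R 4.3.3, with an intensity trend, was fitted to log2(FPKM + 1) of all 9 libraries over features averaging 1 FPKM or more. A run on simulated data used independent noise with the same SD in every group. It therefore could not test the model under unequal group spreads or deviations shared within a library. Pairs were tested by exact permutation. Alternatives were other pseudocounts and filters, quantile normalization, only 2 groups, a replicate block, removal of the length trend, voom on recovered reads, and leaving out each library. Same-numbered libraries did not deviate together (r of −0.33 to 0.14 over 9 pairs), so the numbers were not used as pairs.

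The genes and lists were chosen with earlier results of these data known. The 5 genes are named throughout. 8 lists of 98 gene symbols (other intercalated cell genes, V-ATPase subunits, red cell, principal cell and other markers) could not be matched to identifiers: the table of 47357 rat genes (GRCr8) pairs none with Ensembl identifiers. They give no values here, and the other features most alike in pattern are named by identifier, at most 2. The search letters in the promoter windows were chosen with the sequences in view.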

Additional observations from a re-analysis of the deposited data

How the results depend on the processing

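The number of the 5 genes called was 0 in each of the 3 comparisons. It stayed 0 under all 19 alternatives for Model against WT and for QDG against Model. For QDG against WT it was 1 (Slc26a4) with only the 2 groups fitted, and 0 to 1 with 1 library left out, the 1 being without Model 2. Of 285 differences under the alternatives, 9 took the other sign, none of them called (adjusted p of 0.321 to 0.986). For Model against WT, Atp6v1g3 was −0.032 after quantile normalization and −0.13 to 0.46 with 1 library left out, Slc26a4 −0.050 to 0.56 and Foxi1 −0.16 to 0.25. For QDG against Model, Atp6v1g3 ran from −0.24 to 0.34, and for QDG against WT, Slc4a1 from −0.23 to 0.030. The causes were not tested. With the replicate block the 5 genes kept their differences, and Slc26a4 in QDG against WT had an adjusted p of 0.184. All features called numbered 963 for Model against WT, 144 with only the 2 groups, 533 with the replicate block and 195 to 1529 with 1 library left out. QDG against Model gave 0, 1 with only the 2 groups and 0 to 3. QDG against WT gave 301, 515 after quantile normalization, 486 with only the 2 groups, 154 with the replicate block, 453 after removal of the length trend and 39 to 775. Counting error was 4.26% of a value at most, and for Foxi1 in WT it was about as large as the spread between libraries.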

Other observations

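Among the 12182 other tested features, the one whose profile over the 9 libraries was most like the mean standardized profile of the 5 genes was ENSMUSG00000026888, with a Pearson r of 0.96, followed by ENSMUSG00000038967 with an r of 0.93. ENSMUSG00000038967 stood at 96.7, 92.7 and 98.4 FPKM in QDG, 83.5, 59.3 and 88.3 FPKM in Model and 76.3, 83.9 and 79.5 FPKM in WT. Like 4 of the 5 genes it was lowest in Model 2. Its 3 QDG values lay above all other libraries, as those of Slc26a4 and Atp6v1b1 did. ENSMUSG00000026888 was scarce, at 3.18, 2.98 and 3.35 FPKM in QDG, 2.85, 2.49 and 2.95 FPKM in Model and 2.88, 2.86 and 2.89 FPKM in WT. The highest r of any feature with a single gene was 0.98 for Atp6v1b1 and for Slc26a4, 0.94 for Slc4a1 and 0.93 for Atp6v1g3 and for Foxi1. These are the highest of 12182 values over 9 libraries and are given as a description.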
